A study of Homo sapiens with 12 samples.

Results

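HIF1A and 8 of its neighbours on chromosome 14 (SNAPC1, PRKCH, TMEM30B, SLC38A6, TRMT5, MNAT1, SIX4 and RHOJ) were followed through 4 groups of cultured clear cell renal cell carcinoma (ccRCC) cells. The 9 genes were taken by symbol from a table of 45478 genes, and 7 of the 9 were among the 19929 genes with enough counts to be tested, while TMEM30B and RHOJ were not. HIF1A was selected on its measured level in these libraries, having been seen to be low in 786-O, resistant 786-O and resistant A498 compared to A498, and the neighbours were selected by position, to ask whether they were low as well. Differences from A498 are therefore given as a description without a test, and tests are given only among the other 3 groups.

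The 4 groups had 3 mRNA sequencing libraries each. Names used alone, 786-O and A498 are the parental cells, not selected with a drug. The paper describes both lines as deficient in the tumour suppressor gene VHL. Resistant 786-O and resistant A498 are their sunitinib-resistant derivatives. Sunitinib is an inhibitor of receptor tyrosine kinases. Resistant 786-O was selected with 4 μM and resistant A498 with 2 μM sunitinib over 4 months or more than 20 passages, each as a single named culture, and the cells stayed in drug throughout the selection. The titles of all libraries, parental and resistant, carry the tag veh, and whether sunitinib was present at harvest was not stated. Whether the replicate libraries came from separate cultures was not stated, so that the p-values measure only the spread between these libraries, which may be technical. Each group carried a batch label of its own, and batch and condition cannot be told apart.

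HIF-1 is a transcription factor made of an oxygen-labile alpha subunit, encoded by HIF1A, and a stable beta subunit, encoded by ARNT. In cells with enough oxygen, prolyl hydroxylases of the EGLN family mark the alpha subunits, and the VHL protein, part of a ubiquitin ligase, has them degraded. Loss of VHL is the founding lesion of most ccRCC, and HIF-1 alpha and its relative HIF-2 alpha, encoded by EPAS1, then accumulate and drive different sets of genes. HIF1A lies on the long arm of chromosome 14, which is often lost in ccRCC.

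The libraries held 20042519 to 47972092 counts, with 40845091 to 47972092 in the 786-O and resistant 786-O libraries and 20042519 to 34951585 in the A498 and resistant A498 libraries, and 3 counts were worth 0.0613 CPM in the deepest and 0.144 CPM in the shallowest library. CPM is the usual scaling of a count to its normalized library size. The libraries labelled resistant A498 did not resemble A498: over the tested genes the median correlation of log2 CPM was 0.870 between resistant A498 and A498, 0.868 between A498 and 786-O, 0.951 between resistant A498 and 786-O and 0.982 between resistant A498 and resistant 786-O. Their values are given here by label, and a difference between resistant A498 and A498 cannot be read as an effect of sunitinib on A498. Replicate 2 of resistant 786-O also stood apart from replicates 1 and 3, with a chi-square per degree of freedom of 49.7 and 49.0 against 1.56 to 8.03 for all other replicate pairs. Where leaving it out changed a call of a member or a count of a gene list below, the value without it is given. The shares of all genes that passed without it are not given, so such counts have no background of their own. Of 8 renal tubule and ccRCC markers, 7 reached 1 CPM in A498 and 6 in each other group. CA9 was at no more than 3 counts in every library outside A498, and NDUFA4L2 was below 1 CPM in all groups. The summed level of 8 T cell markers was at most 0.664 CPM in any library.

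The counts did not keep the strands apart. Across 211 non-coding genes that lie on the opposite strand inside the exons of an abundant coding gene, the median count density relative to that coding gene was 1.47, against 0.00152 for 1028 antisense genes with no exonic overlap. The library kit and the stated counter setting are both stranded. With a median density of 1.47 inside exons, reads in bases shared by 2 genes on opposite strands were not dropped as a rule. Such a read could thus be given to either gene or to both, and which of these held was not tested. HIF1A shares 133 exonic bases with its antisense gene HIF1A-AS1 and 299 with HIF1A-AS3, PRKCH shares 356 with TMEM30B, and SLC38A6 shares 57 with TRMT5. HIF1A and SNAPC1 each share exonic bases (148 and 565) with the same-strand transcript ENSG00000258964.

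The members lie on the forward strand at chr14:61695513-61748259 (HIF1A, ENSG00000100644), chr14:61762420-61796428 (SNAPC1, ENSG00000023608), chr14:61187559-61550976 (PRKCH), chr14:60981114-61114316 (SLC38A6), chr14:60734742-60969965 (MNAT1) and chr14:63204114-63293508 (RHOJ), and on the reverse strand at chr14:61277370-61281761 (TMEM30B), chr14:60971441-60981170 (TRMT5) and chr14:60709539-60724351 (SIX4), in GRCh38. All are protein-coding. The 250 bases before the start of transcription are shown for HIF1A and SNAPC1, the members that were lowest relative to A498, and for SIX4, the member farthest upstream, which was not low. They are RefSeq sequences of GRCh38.p14, written 5′ to 3′ on the strand of the gene, and the capitals mark the core of the hypoxia response element, ACGTG or GCGTG, found on either strand (CACGT or CACGC on the other), with overlapping matches run together.
HIF1A, chr14:61695263-61695512, forward strand: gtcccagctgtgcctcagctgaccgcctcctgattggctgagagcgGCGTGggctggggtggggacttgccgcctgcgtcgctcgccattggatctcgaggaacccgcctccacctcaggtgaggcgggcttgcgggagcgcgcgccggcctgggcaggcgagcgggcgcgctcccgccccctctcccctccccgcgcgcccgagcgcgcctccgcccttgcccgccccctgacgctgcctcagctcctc
SNAPC1, chr14:61762170-61762419, forward strand: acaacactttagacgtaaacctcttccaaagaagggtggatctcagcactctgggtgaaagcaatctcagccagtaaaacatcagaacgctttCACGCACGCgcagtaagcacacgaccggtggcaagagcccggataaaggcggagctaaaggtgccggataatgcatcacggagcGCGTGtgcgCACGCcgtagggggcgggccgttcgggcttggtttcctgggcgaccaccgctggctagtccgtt
SIX4, chr14:60724352-60724601, reverse strand: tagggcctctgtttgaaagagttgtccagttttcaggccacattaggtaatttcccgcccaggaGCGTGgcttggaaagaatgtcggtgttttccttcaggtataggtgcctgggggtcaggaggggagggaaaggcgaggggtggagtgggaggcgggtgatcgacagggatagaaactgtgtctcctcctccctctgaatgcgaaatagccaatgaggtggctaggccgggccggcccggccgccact
The HIF1A stretch held 1 such core, the SNAPC1 stretch 4 and the SIX4 stretch 1. Of 35116 promoters of the same length, 43.2% held at least 1. The HIF1A stretch had 29 CG dinucleotides and 75.6% G and C, the SNAPC1 stretch 22 and 57.6%, and the SIX4 stretch 11 and 58%, against a median of 11 and 58% over all promoters. The stretch before a further RefSeq start of HIF1A, chr14:61697462-61697711, is not shown. It held 0 cores, 3 CG dinucleotides and 31.2% G and C. These are descriptions of the letters and not of binding or methylation, which were not measured in these libraries.

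HIF1A was the member with the widest range of levels, with 305 ± 11.3 CPM (SD, n = 3) in A498 and 8.79 to 10.8 CPM on average in the other groups. The 3 A498 libraries had 311, 312 and 292 CPM, from 10747, 6718 and 7945 counts. In 786-O the 3 values were 11.1, 11.2 and 10.0 CPM, from 421, 432 and 452 counts. All 9 libraries outside A498 were far below the lowest A498 library. The resistant 786-O libraries had 9.40, 9.66 and 8.51 CPM, and the resistant A498 libraries had 8.87, 8.42 and 9.08 CPM. Relative to A498 the mean level was 3.52% in 786-O, 3.01% in resistant 786-O and 2.88% in resistant A498, which are fitted log2 differences of -4.83, -5.05 and -5.11 and folds of 28.4, 33.2 and 34.7. The gene was still read in every library, since the lowest count was 176. Genes in bulk libraries are averages over cells, and fewer cells with HIF1A RNA and less of it per cell cannot be told apart. Of the 19929 tested genes, 843 had a lower log2 difference of 786-O from A498 than HIF1A, 4.23% of them, and among the 2270 genes with at least 100 CPM in A498 this was true of 27.

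Per kb of exon, which allows genes to be compared, HIF1A stood at 59.3 ± 2.18 CPM per kb in A498 and at 2.09 ± 0.123 in 786-O, 1.78 ± 0.118 in resistant 786-O and 1.71 ± 0.0650 in resistant A498. In A498 it was thus the most abundant member, followed by SNAPC1 at 7.72 ± 0.540 CPM per kb. Outside A498, MNAT1 had the highest level per kb, with 2.85 ± 0.197 in 786-O, 1.93 ± 0.279 in resistant 786-O and 1.87 ± 0.164 in resistant A498. In resistant 786-O and resistant A498 the spread of MNAT1 met that of HIF1A.

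**Figure D1:**
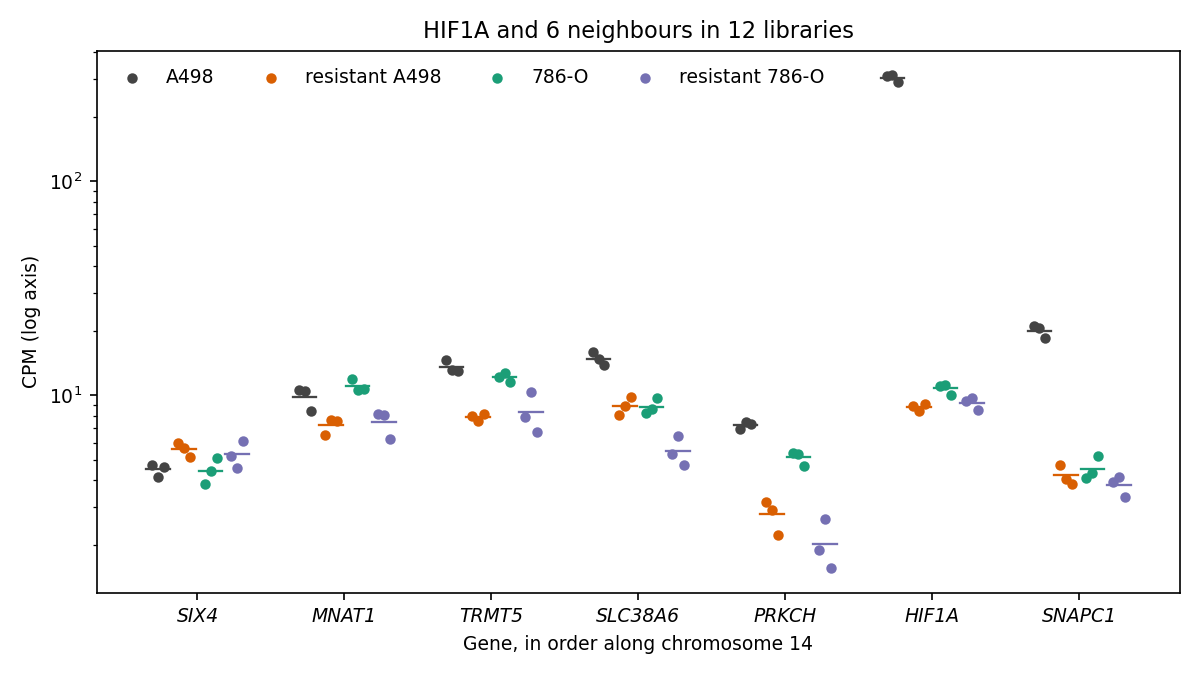
CPM of HIF1A and 6 neighbours in each of the 12 libraries, on a log axis, with genes in their order along the chromosome; points are libraries and bars are means of 3. HIF1A averages 305 CPM in A498 and 8.79 to 10.8 CPM elsewhere, SNAPC1 20.0 and 3.80 to 4.54 CPM, and SIX4 lies between 3.84 and 6.08 CPM in all groups.

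SNAPC1, which encodes a subunit of the complex that starts transcription of small nuclear RNA genes, was the only other member that was more than 2-fold lower than in A498 in all 3 groups. It begins 14.2 kb beyond the end of HIF1A and had 21.1, 20.5 and 18.4 CPM in A498. It had 4.10, 4.32 and 5.19 CPM in 786-O and 3.94, 4.14 and 3.32 CPM in resistant 786-O. The resistant A498 libraries, with 4.73, 4.07 and 3.83 CPM, lay in the same range. The mean was 22.7% of the A498 level in 786-O, 19.0% in resistant 786-O and 21.0% in resistant A498, so that SNAPC1 was 4.40- to 5.26-fold lower where HIF1A was 28.4- to 34.7-fold lower.

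PRKCH encodes the eta isoform of protein kinase C and is the nearest member upstream of HIF1A. Its libraries had 6.98, 7.48 and 7.32 CPM in A498 and 5.37, 5.30 and 4.68 CPM in 786-O. They had 1.88, 2.63 and 1.55 CPM in resistant 786-O and 3.17, 2.92 and 2.23 CPM in resistant A498. No library of the other groups reached the lowest A498 value. The mean was 70.5% of A498 in 786-O, 27.8% in resistant 786-O and 38.2% in resistant A498, so the gene was further below A498 in the 2 resistant groups than in 786-O.

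SLC38A6, a member of the family of sodium-coupled amino acid transporters, and TRMT5, a tRNA methyltransferase, form a head-to-head pair 0.648 and 0.719 Mb upstream of HIF1A. SLC38A6 had 15.9, 14.7 and 13.9 CPM in A498, 8.23, 8.59 and 9.65 in 786-O, 5.29, 6.43 and 4.72 in resistant 786-O and 8.05, 8.85 and 9.82 in resistant A498. TRMT5 had 14.5, 13.1 and 12.9 CPM in A498, 12.2, 12.6 and 11.5 in 786-O, 7.88, 10.3 and 6.71 in resistant 786-O and 7.98, 7.61 and 8.14 in resistant A498. SLC38A6 stood at 59.5%, 37.0% and 60.1% of its A498 level in 786-O, resistant 786-O and resistant A498, and TRMT5 at 89.5%, 61.4% and 58.4%. Both were below all A498 libraries in all 9 other libraries, but by much less than HIF1A.

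MNAT1, the assembly factor of the CDK-activating kinase, and SIX4, a homeobox transcription factor, are the most distant members upstream. MNAT1 had 10.6, 10.5 and 8.39 CPM in A498, 11.9, 10.5 and 10.7 in 786-O, 8.19, 8.06 and 6.25 in resistant 786-O and 6.52, 7.66 and 7.59 in resistant A498. SIX4 had 4.72, 4.14 and 4.64 CPM in A498, 3.84, 4.40 and 5.06 in 786-O, 5.21, 4.56 and 6.08 in resistant 786-O and 6.002, 5.65 and 5.16 in resistant A498. In 786-O the libraries of both genes overlapped those of A498, at 113% and 98.5% of its mean. In the resistant groups MNAT1 was at 76.5% and 74.0% and SIX4 at 117% and 125%.

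TMEM30B, a subunit of phospholipid flippases, and RHOJ, a small GTPase known from endothelial cells, gave no level to compare. RHOJ had 0 counts in all 12 libraries. TMEM30B had 5, 2 and 5 counts in resistant 786-O and 0 in the 9 others. Where TMEM30B and PRKCH share bases, their reads cannot be told apart. A count of 0 allows up to 0.144 CPM in the shallowest library and 0.0613 CPM in the deepest, for counting error only, so whether these genes were low where HIF1A was low was not detectable at this depth.

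Of the 7 tested members, 2 were over 2-fold lower than A498 in 786-O, 4 in resistant 786-O and 3 in resistant A498, and none was over 2-fold higher. Among all tested genes 20.3%, 15.4% and 16.9% were over 2-fold lower and 12.6%, 16.1% and 14.9% over 2-fold higher. HIF1A was the only member more than 10-fold lower, against 7.18%, 4.32% and 4.43% of all genes. The median log2 difference of the members from A498 was -0.50 in 786-O, -1.44 in resistant 786-O and -0.78 in resistant A498, against 0.04, 0.03 and -0.0041 over all genes. In 5 of 7 members (HIF1A, SNAPC1, PRKCH, SLC38A6 and TRMT5) every A498 library was above all 9 other libraries, and this was so for 23.8% of all genes. Since HIF1A was selected on its level, these counts are given as a description and are read no further.

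All tested genes within 1 Mb of the start of HIF1A were then placed in order, since the members alone leave gaps. Of 26 genes of the table in this window, 11 were tested and 5 had no count in any library. From the upstream end the order was SIX4, MNAT1, TRMT5, SLC38A6, PRKCH, the long non-coding RNA genes LINC01303 and LINC03033, HIF1A-AS1, HIF1A, SNAPC1 and SYT16. By group means, the last 4 of these were all at 22.7% of A498 or lower in each of the other groups, and none of the 7 before them was below 27.8%. Single libraries overlapped, with PRKCH as low as 21.4% and SNAPC1 as high as 25.9% of the A498 mean.

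HIF1A-AS1, which starts within HIF1A and runs away from it on the other strand, had 1179, 708 and 897 counts in A498 and 31 to 117 counts in the 9 other libraries, which was 4.76% of A498 in 786-O, 6.55% in resistant 786-O and 5.05% in resistant A498. Since it shares exonic bases with HIF1A and strands were not kept apart, its reads and those of HIF1A cannot be told apart there. HIF1A-AS3 had 8, 2 and 3 counts in A498 and at most 2 in any other library and was not tested. SYT16, a member of the synaptotagmin family that begins 15.5 kb beyond SNAPC1, had 133, 91 and 106 counts in A498 and 4 to 17 in the 9 others, at 5.32%, 7.59% and 12.2% of A498 in 786-O, resistant 786-O and resistant A498. It was thus lower relative to A498 than SNAPC1, which lies between it and HIF1A.

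The 2 genes just upstream went the other way. LINC03033, 36.8 kb before HIF1A, had 10, 5 and 12 counts in A498 but 237, 222 and 317 in 786-O, 88, 64 and 65 in resistant 786-O and 106, 84 and 87 in resistant A498. Its mean of 6.34 CPM in 786-O was 1973% of the 0.321 CPM in A498. LINC01303 had 11, 12 and 12 counts in A498 and 35 to 98 in the other libraries, at 360% to 482% of A498. So the genes on both sides of the LINC pair, PRKCH and HIF1A-AS1, were lower than in A498, and the pair between them was higher.

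**Figure D2:**
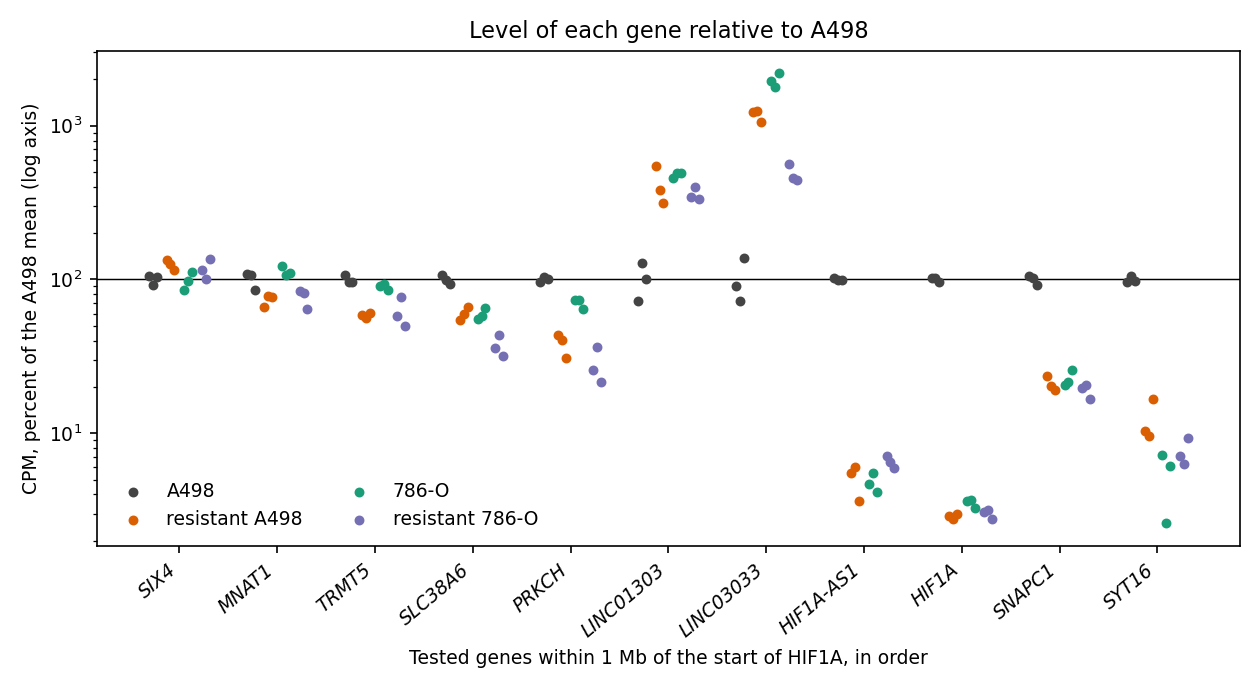
CPM of the 11 tested genes within 1 Mb of HIF1A as a percent of their A498 mean, on a log axis, in their order along the chromosome; each point is 1 library and the line marks 100%. HIF1A-AS1, HIF1A, SNAPC1 and SYT16 lie at 25.9% or lower in all 9 libraries outside A498, LINC01303 and LINC03033 at 312% or higher, and the 5 genes farther left between 21.4% and 135%.

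Downstream, the next tested gene after SYT16 was PPP2R5E, which encodes a regulatory subunit of a serine/threonine phosphatase, 1.76 Mb from the start of HIF1A. It stood at 138% of A498 in 786-O, 72.3% in resistant 786-O and 100.2% in resistant A498. Of the 8 genes of the table between SYT16 and PPP2R5E, none was tested, and 6, RHOJ among them, had no more than 3 counts in any library. Whether genes in this gap were lower than in A498 was therefore not compared. Within 5 Mb and with at least 5 CPM in the higher group, the genes with the lowest difference of 786-O from A498 were HIF1A (-4.83), HIF1A-AS1 (-4.40), HSPA2 (-2.58), SNAPC1 (-2.14) and DHRS7 (-1.23), and those with the highest were LINC03033 (4.28), DAAM1 (0.95), YBX1P1 (0.79), NAA30 (0.67) and SGPP1 (0.59). HSPA2, a heat shock protein gene 2.85 Mb downstream, was at 16.6% of A498 in 786-O and lies beyond PPP2R5E, which was not low there.

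Medians were taken over windows of growing width around HIF1A. Over the 11 genes within 1 Mb the median log2 difference of 786-O from A498 was -0.50, and it was -0.16 over the 9 left without HIF1A and HIF1A-AS1. It was 0.17 over 22 genes within 2 Mb, 0.05 over 65 genes within 5 Mb and 0.10 over 611 genes of chromosome 14, against 0.04 over all genes. In resistant 786-O the same medians were -1.44, -0.71, -0.38, -0.31 and -0.16, against 0.03, and in resistant A498 they were -0.78, -0.74, -0.28, -0.10 and -0.07, against -0.0041. The 1 Mb median of 786-O moved to -1.44 with only genes of at least 10 CPM and to -0.11 without a filter. Under the same settings that of resistant 786-O moved to -2.40 and -0.67, and that of resistant A498 to -2.24 and -1.34. By its median, the chromosome as a whole was thus not lower in 786-O than in A498. Among genes of at least 10 CPM its median of 0.13 was the 12th lowest of 23 chromosomes. It was the 4th lowest (-0.24) in resistant 786-O and the 8th lowest (-0.09) in resistant A498, also relative to A498. The number of chromosome copies was not measured in any group, A498 included.

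**Figure D3:**
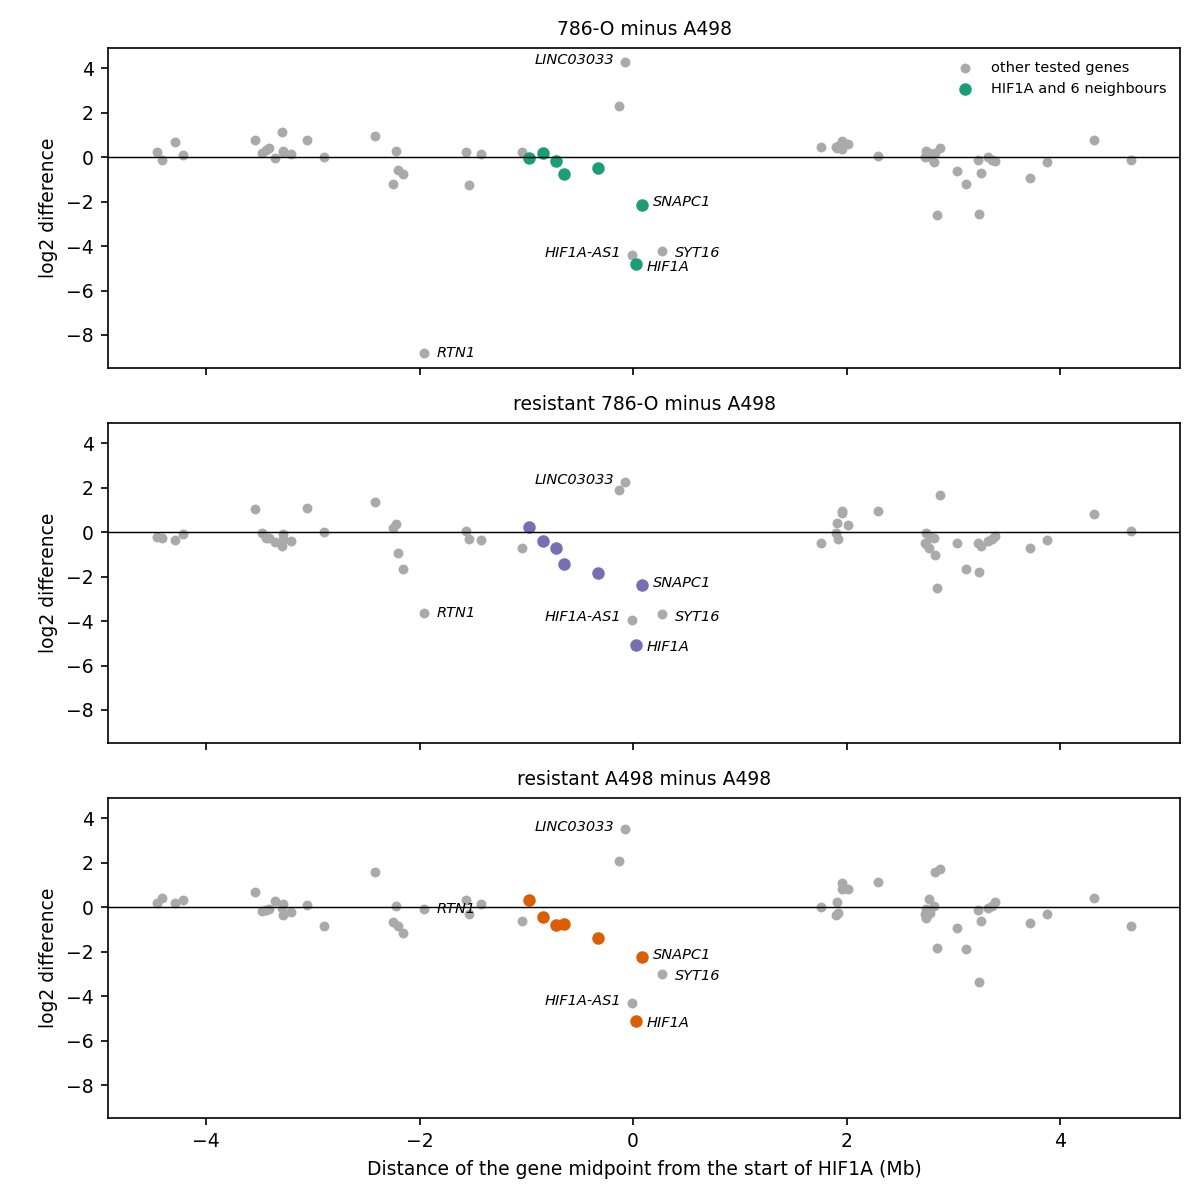
Fitted log2 difference from A498 of the 65 tested genes within 5 Mb, by the distance of the gene midpoint from the start of HIF1A in Mb, for 786-O, resistant 786-O and resistant A498; each point is 1 gene. HIF1A, HIF1A-AS1, SYT16 and SNAPC1 lie below -2 in all 3 panels and LINC03033 above 2, and the value of RTN1 in 786-O, where its mean was 0 CPM, depends on the prior count.

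The comparisons that leave out A498 ask how the members differed among the 3 other groups. Between resistant 786-O and 786-O, 5 of 7 members were lower in resistant 786-O, none was higher and 2 did not pass. Of all tested genes 68.5% passed, made up of 33.5% of all tested genes that were lower and 35.0% that were higher. PRKCH had the widest difference, with a log2 fold change of -1.34 (SE 0.161) and an edgeR adjusted p of 3.16e-06. SLC38A6 was lower by a log2 fold change of -0.69 (edgeR adjusted p = 8.28e-05). MNAT1 and TRMT5 were lower by -0.56 and -0.54 (edgeR adjusted p = 0.000545 and 0.000889). In all 4 genes and in HIF1A no resistant 786-O library reached the lowest 786-O library, which was so, in this direction, for 34.4% of all genes.

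HIF1A itself was lower in resistant 786-O than in 786-O by a log2 fold change of only -0.23 (SE 0.0655, edgeR adjusted p = 0.00673). Scaling to the library size only took this call away (log2 -0.08, edgeR adjusted p = 0.265), as did a fit of these groups alone (-0.19, 0.0909) and leaving out replicate 3 of resistant 786-O (-0.15, 0.0607). SNAPC1 was at -0.26 with a 95% interval of -0.52 to -0.0017 (edgeR adjusted p = 0.0690), and SIX4 at 0.25 with an interval of -0.02 to 0.52 (edgeR adjusted p = 0.0910). Without resistant 786-O replicate 2 all 7 members passed the test, SNAPC1 at -0.33 (edgeR adjusted p = 0.0143) and SIX4 at 0.34 (0.00725). The share of all genes passing in that fit is not given, so this count is not read as a result about the members. Over the fits that left out 1 library, 12626 to 14880 genes passed in this comparison, against 13643 with all libraries. SNAPC1 also passed without 786-O replicate 1 (-0.33, 0.0423), and SIX4 without 786-O replicate 3 (0.36, 0.0370), with library size alone (0.39, 0.0133), with at least 10 counts in every library (0.31, 0.0402) and after thinning to the smallest library (0.34, 0.0322). The fitted differences of PRKCH, SLC38A6, TRMT5 and MNAT1 were larger than that of HIF1A between these groups, although HIF1A was the member farthest from A498, and the difference between genes was not tested.

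Between resistant A498 and 786-O, 4 members were lower in resistant A498 (HIF1A, PRKCH, TRMT5 and MNAT1), SIX4 was higher and 2 did not pass, with 63.6% of all genes passing, 32.1% lower and 31.6% higher. HIF1A differed by -0.29 (SE 0.0712, edgeR adjusted p = 0.00252), which did not pass when only library size was scaled (-0.14, 0.102). PRKCH was lower by -0.88 (edgeR adjusted p = 0.000323), and TRMT5 and MNAT1 both by -0.61 (0.000611 and 0.000475). SIX4 was higher by 0.33 (edgeR adjusted p = 0.0385), a call lost without a filter (0.0546) and without A498 replicate 3 (0.0518), resistant A498 replicate 1 (0.109) or 2 (0.0621), or 786-O replicate 1 (0.159) or 2 (0.0868). SLC38A6 was at 0.01 with a 95% interval of -0.24 to 0.26 and SNAPC1 at -0.11 with an interval of -0.38 to 0.17.

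Resistant A498 and resistant 786-O differed in 46.1% of all tested genes and in 1 of 7 members. SLC38A6 was higher in resistant A498 by a log2 fold change of 0.70 (SE 0.120, edgeR adjusted p = 0.000257). HIF1A was at -0.06 with a 95% interval of -0.21 to 0.09. PRKCH was at 0.46 (edgeR adjusted p = 0.0534), and it passed without resistant 786-O replicate 2 (0.69, 0.000577), without resistant A498 replicate 3 (0.61, 0.0252), by DESeq2's Wald test (0.47, adjusted p = 0.0424), without a filter (0.45, 0.0289), with library size alone (0.47, 0.0481) and with the replicate number as a block (0.47, 0.0340). All comparisons share 1 estimate of the spread over the 12 libraries, and each pair of comparisons shares a group, so the comparisons are not independent of each other.

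**Figure D4:**
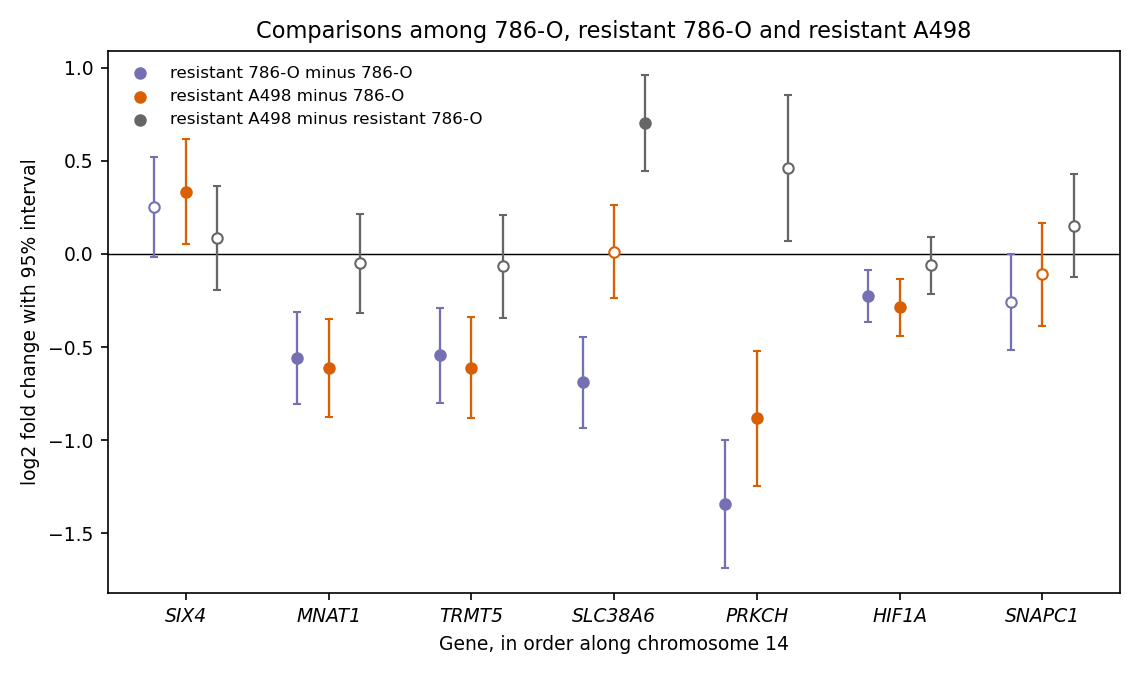
Log2 fold changes of HIF1A and 6 neighbours among the 3 groups other than A498; bars are 95% intervals, filled points passed an adjusted p under 0.05 (edgeR) and open points did not. PRKCH reaches -1.34 in resistant 786-O minus 786-O, SLC38A6 0.70 in resistant A498 minus resistant 786-O, and HIF1A stays between -0.29 and -0.06.

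In these 3 groups HIF1A-AS1 was higher in resistant 786-O than in 786-O by 0.47 (edgeR adjusted p = 0.0114), where HIF1A was lower, and SYT16 was higher in resistant A498 than in 786-O by 1.19 (edgeR adjusted p = 0.00921) at 0.486 and 0.212 CPM. LINC03033 was lower in resistant 786-O than in 786-O by -2.02 (edgeR adjusted p = 7.15e-09) and in resistant A498 than in 786-O by -0.74 (0.000184), and higher in resistant A498 than in resistant 786-O by 1.27 (1.02e-05). LINC01303 lay just inside the threshold in resistant 786-O minus 786-O, at -0.42 (edgeR adjusted p = 0.04996), and did not pass in the other comparisons.

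Likeness to HIF1A over the 12 libraries is given as a description only. It rests largely on the difference from A498, on which HIF1A was selected. By the root mean square distance between centred log2 CPM values, the 5 closest of 19928 genes were PWWP3B (0.154), ENSG00000278041, ENSG00000206976, BVES-AS1 and FAM24B (0.207), none of them on chromosome 14. These 5 had 1.47 to 1.79 CPM in A498 and at most 0.00877 elsewhere, so that their distance was set by the prior count of 2. HIF1A-AS1 came at rank 88, SYT16 at 467, SNAPC1 at 941 (1.20), PRKCH at 2253, SLC38A6 at 2750, TRMT5 at 4300, MNAT1 at 6908 and SIX4 at 11270 (2.25). Among genes with at least 100 CPM in A498, a limit chosen after the values were seen, SNCG (0.421), SORCS2 (0.527) and NME4 (0.528) were closest, also on other chromosomes.

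The other alpha subunit with a level to compare was not low where HIF1A was low. EPAS1, which encodes HIF-2 alpha, had 160 ± 2.75 CPM in A498, 161 ± 4.52 in 786-O, 202 ± 33.2 in resistant 786-O and 237 ± 11.1 in resistant A498 (n = 3 each). The resistant 786-O values were 211, 165 and 229 CPM, and the second of them, from the library that stood apart, overlapped 786-O. EPAS1 was higher than in 786-O by a log2 fold change of 0.32 in resistant 786-O (edgeR adjusted p = 0.00390) and 0.55 in resistant A498 (5.03e-05). Per kb of exon, HIF1A was above EPAS1 in A498, at 59.3 against 21.9 CPM per kb, and far below it in 786-O, at 2.09 against 22.1. HIF3A had at most 11 counts in any library.

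Of the partners of the alpha subunits, ARNT had 19.9 ± 1.62 CPM in A498 and 32.3 to 34.0 in the other groups, and it passed the test in none of the 3 comparisons. ARNT2 was higher in resistant 786-O than in 786-O by 1.34 (edgeR adjusted p = 2.53e-06) and in resistant A498 by 1.23 (9.26e-06), with 13.7 ± 0.436 CPM in 786-O, 34.6 ± 10.4 in resistant 786-O and 32.0 ± 1.16 in resistant A498. BMAL1, a clock factor that is a further relative of ARNT, had 30.8 ± 0.593 CPM in A498 and 9.47 to 10.9 elsewhere. Thus BMAL1 was also lower outside A498, while ARNT was higher.

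**Figure D5:**
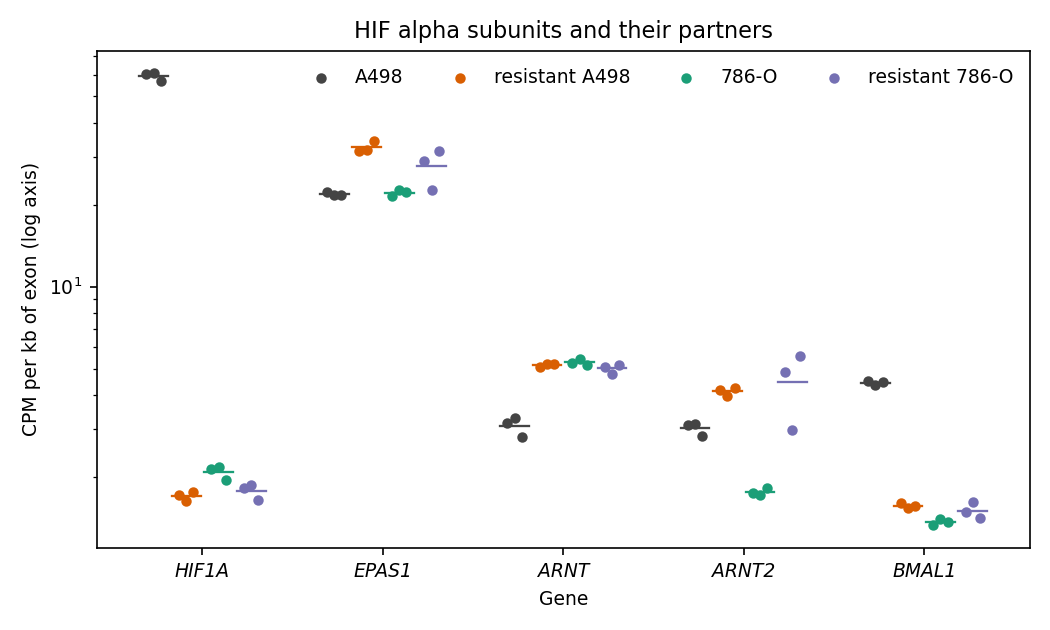
CPM per kb of exon of HIF1A, EPAS1 and the partners ARNT, ARNT2 and BMAL1 in each library, on a log axis; points are libraries and bars are means of 3. HIF1A goes from 59.3 in A498 to between 1.71 and 2.09 elsewhere, while EPAS1 stays between 21.9 and 32.4.

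Among regulators, EGLN3, a hypoxia-induced prolyl hydroxylase that also lies on chromosome 14, 27.5 Mb from HIF1A, had 103 ± 9.50 CPM in A498, 30.3 ± 1.61 in 786-O, 49.3 ± 11.0 in resistant 786-O and 33.01 ± 1.66 in resistant A498. It was higher in resistant 786-O than in 786-O by 0.70 (edgeR adjusted p = 0.000136). EGLN1, the main oxygen sensor, was also higher in resistant 786-O than in 786-O by 0.78 (edgeR adjusted p = 2.25e-05), whereas RBX1, a subunit of the VHL ubiquitin ligase, was lower by -0.66 (4.28e-08). VHL RNA, at 17.0 CPM in A498 and 21.9 to 26.0 elsewhere, passed only between resistant A498 and resistant 786-O (0.24, edgeR adjusted p = 0.0259). The paper describes both lines as VHL-deficient, and the RNA level does not tell whether the protein works.

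Of 17 HIF pathway genes, 16 were tested. In resistant 786-O compared to 786-O, 7 were higher and 4 lower, and in resistant A498 compared to 786-O, 6 were higher and 4 lower, with medians of 0.11 and 0.10 against 0.03 and 0.0029 over all genes. Between resistant A498 and resistant 786-O 5 were higher and 3 lower. Without resistant 786-O replicate 2 these counts became 9 and 4, 7 and 4, and 6 and 4. Of all tested genes, 68.5%, 63.6% and 46.1% passed in these comparisons with all libraries, so the list stood near the background in that fit.

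Of 19 genes known to respond to HIF-1, 13 were lower and 5 higher in resistant 786-O than in 786-O, where 33.5% of all genes were lower and 35.0% higher. In resistant A498 compared to 786-O, 8 were lower, 4 were higher and 7 did not pass, against 32.1% lower and 31.6% higher over all genes. Between resistant A498 and resistant 786-O, 5 were higher and 2 lower, while 46.1% of all genes passed in either direction. Without resistant 786-O replicate 2 the first counts stayed at 13 lower and 5 higher, and the others became 9 lower and 4 higher, and 6 higher and 4 lower. The glycolytic enzyme genes ENO1 (-0.73), LDHA (-0.76), TPI1 (-0.89) and HK2 (-0.71) and the pyruvate dehydrogenase kinase gene PDK1 (-0.97) fell in resistant 786-O compared to 786-O, all with an edgeR adjusted p of at most 1.92e-07. The aldolase gene ALDOA, also of glycolysis, rose by 0.51 (edgeR adjusted p = 2.88e-07), from 65.5 to 93.2 CPM. NDRG1, a stress-response gene, rose by 1.74 (edgeR adjusted p = 4.93e-09), from 226 ± 3.83 to 755 ± 159 CPM. Without CA9, which had no more than 3 counts in any library of these 3 groups, the medians of the 18 left were -0.41, -0.13 and 0.07 for the comparisons in the same order, against 0.03, 0.0029 and -0.03 over all genes. Many of these genes also respond to HIF-2, and the list does not separate the 2 factors.

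Against A498, the targets did not follow HIF1A as a list. The median difference of the 19 genes was 0.15 in 786-O, -0.20 in resistant 786-O and 0.13 in resistant A498, against 0.04, 0.03 and -0.0041 over all genes. In the same order 4, 2 and 2 were over 2-fold lower, against 20.3%, 15.4% and 16.9% of all genes. Over 2-fold higher were 2, 0 and 1, against 12.6%, 16.1% and 14.9%. Only CA9 and ALDOC were over 2-fold lower in all 3 groups, while ANKRD37 (38.2% of A498) and NDRG1 (36.7%) were so in 786-O alone. ALDOC, an aldolase gene, had 28.6, 31.5 and 29.7 CPM in A498 and 0.957 to 3.29 CPM in the 9 other libraries. CA9, the carbonic anhydrase of ccRCC, had 1.07 to 1.56 CPM in A498 and no more than 3 counts in any other library, so no fold is given. NDRG1 had 615 ± 50.2 CPM in A498, 226 ± 3.83 in 786-O, 755 ± 159 in resistant 786-O and 730 ± 41.4 in resistant A498. PGK1, with 846 ± 12.8 CPM in A498, stayed between 637 and 793 CPM in the others.

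Relatives and partners of the members were looked up to see the same functions in other genes. The other subunits of the SNAPC1 complex, SNAPC2 to SNAPC5, had 13.5 to 49.4 CPM in A498, and none was over 2-fold lower in any other group. CDK7, the kinase that MNAT1 joins, had 35.2 ± 2.04 CPM in A498 and 16.3 to 17.5 elsewhere, a larger difference than that of MNAT1. TMEM30A, the paralogue of the undetected TMEM30B, had 130 to 223 CPM in the 4 groups, and RHOQ and CDC42, of the same family as RHOJ, had 67.0 to 104 and 153 to 362 CPM. PRKCE, the isoform nearest to PRKCH, was higher in resistant A498 than in 786-O by 2.01 (edgeR adjusted p = 1.19e-12), where PRKCH was lower. Of the 17 relatives, 3 were higher and 7 lower in resistant 786-O than in 786-O, 5 higher and 7 lower in resistant A498 than in 786-O, and 8 higher and 4 lower in resistant A498 than in resistant 786-O. These are 10, 12 and 12 of 17 genes, where 68.5%, 63.6% and 46.1% of all genes passed. Without resistant 786-O replicate 2 the number lower became 8 in the first and 5 in the last comparison, with the numbers higher as before.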

How the data were processed

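mRNA was sequenced from 12 libraries, 3 per group. The authors deposited raw counts per gene, made according to the paper and the submitters' processing notes with Trimmomatic 0.36.6, HISAT2 2.1.0 (GRCh38) and featureCounts 1.6.3. Groups were taken from the labels. One edgeR 4.0.16 quasi-likelihood model with 4 group means was fitted in R 4.3.3 to the 19929 genes kept by filterByExpr, with TMM scaling and a prior count of 0.125. Benjamini-Hochberg adjustment covered every tested gene, with a threshold of 0.05. Standard errors and 95% intervals come from this fit. Likeness used log2 CPM with a prior count of 2. Positions and exonic lengths were taken from GENCODE 44, distances run from gene midpoints, and promoters came from RefSeq. Intervals and floors cover counting error and the spread between libraries only. The code was tested on simulated data, and figures were made with matplotlib 3.10.9. The members and gene lists were chosen with earlier results of these data known. Genes named are the 9 members, the tested genes within 1 Mb, the 5 highest and 5 lowest within 5 Mb, the 5 with the most similar pattern, and listed HIF pathway, target, partner and marker genes. The replicate numbers did not pair the libraries, and the alternatives are given at the end. HIF1A-AS2 was not analysed here. Values of 1 listed gene are not reported here.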

Additional observations from a re-analysis of the deposited data

How the results depend on the processing

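No passing result turned direction under any alternative (0 in all). Apart from the leaving-out of single libraries, 116 of 165 main values were classed as unchanged. A count was classed so within a fixed ratio of the reported count, and a log2 difference or median within the SD between libraries. This is a loose rule for counts. For resistant 786-O minus 786-O, 10800 genes with at least 10 counts in every library were classed as unchanged against 13643. For members passing between resistant A498 and resistant 786-O, 1 in the reported fit, the count was 2 with library size alone, 2 by DESeq2's Wald test, 3 with no filter and 0 with a log2 fold change over 1. With no filter TMEM30B passed too, from its 12 counts in resistant 786-O. The replicate numbers did not pair the libraries (correlations of -0.184 to 0.2008). With the replicate number as a block, the counts of members were 5, 5 and 2 and those of all genes 13497, 12567 and 8974, against 13643, 12683 and 9180. DESeq2 passed 13000, 12219 and 8646 genes. With a log2 fold change over 1, the genes passing were 4382 (resistant minus parental 786-O), 3983 (resistant A498 minus 786-O) and 1455 (resistant A498 minus resistant 786-O), and the members 1, 0 and 0. HIF1A in resistant A498 minus A498 was at -5.0463 with library size alone.

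The medians around HIF1A moved most, in log2 units against A498. With library size alone, 786-O was at 0.0866 (2 Mb), -0.0348 (5 Mb) and 0.0176 (chromosome 14), resistant 786-O at -0.2479 (5 Mb) and -0.0992 (chromosome 14) and resistant A498 at -0.0016 (chromosome 14). With DESeq2 size factors, 786-O was at -0.0069 (5 Mb) and 0.0455 (chromosome 14), and resistant A498 at -0.0897 (chromosome 14). With no filter, 786-O was at -0.1113 (1 Mb), -0.0435 (2 Mb) and 0.0000 (5 Mb and chromosome 14), resistant 786-O at -0.6662, -0.2651, -0.2307 and 0.0000 (1, 2 and 5 Mb and chromosome 14), and resistant A498 at -1.3440 (1 Mb) and 0.0000 (chromosome 14). With at least 10 counts in every library, 786-O was at 0.0949, -0.0225 and 0.0410 (2 Mb, 5 Mb and chromosome 14) and resistant A498 at -0.3687 (2 Mb). After thinning, 786-O was at 0.0212 (5 Mb) and 0.0756 (chromosome 14). With genes of at least 10 CPM, the 1, 2 and 5 Mb and chromosome medians were -1.4426, -0.4568, -0.0056 and 0.1322 in 786-O, -2.3956, -0.7085, -0.3655 and -0.2395 in resistant 786-O, and -2.2449, -0.7377, -0.1793 and -0.0948 in resistant A498. Over the 20 nearest genes on each side, 786-O was at 0.1060. The cause of these shifts was not tested, beyond the change in the genes counted.

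On leaving out 1 library at a time, the members passing ranged from 4 to 7, 4 to 5 and 1 to 2 in the comparisons as ordered above, and the genes from 12626 to 14880, 11650 to 13999 and 7591 to 10790. HIF1A in resistant A498 minus A498 lay between -5.1474 and -5.0538. Against A498, the 2 Mb median of 786-O lay between 0.1033 and 0.2085, its 5 Mb median between 0.0383 and 0.0887 and its chromosome median between 0.0783 and 0.1026. For resistant 786-O, the 2 Mb median lay between -0.4490 and -0.2943 and the 5 Mb median between -0.3249 and -0.2309. For resistant A498, the 2 Mb median lay between -0.3079 and -0.1847 and the chromosome median between -0.0700 and -0.0378. Calls of single members that changed are given beside their values. At this depth TMEM30B and RHOJ could not be compared.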
